A study of Homo sapiens with 8 samples.

Results

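The genes described here are a set of 44 human genes that drive or carry out cell division in G2 phase and mitosis. The set was chosen with earlier results of these data known. It was read in MUG-Chor1 and U-CH1, cell lines established from chordoma, a tumour that resembles embryonic notochord. Of the 44 genes listed, 42 had a probe set with exactly 1 gene symbol, and all 42 passed the filter on low values. The other 2, BUB1B and CENPA, were not analysed for expression and count only in the promoter shares. The 42 genes are among 16986 genes tested. The 8 arrays fall into 4 groups. The MUG-Chor1 TNF group has 1 array and the U-CH1 TNF group has 1 array, each from cells kept for 1 week in medium with 10 ng/mL recombinant human TNF-α, added 3 times a week. The MUG-Chor1 control group has 3 arrays and the U-CH1 control group has 3 arrays, from cells grown without the cytokine. All cells grew as adherent monolayers on gelatin in serum-containing medium, no vehicle is named for the controls, and each line comes from a single tumour. The labels do not state separate cultures for the controls, so the p-values cover sample-to-sample spread alone, and part or all of it may be technical.

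Entry into mitosis is driven by cyclin-dependent kinase 1 bound to A- and B-type cyclins, and exit by the anaphase-promoting complex, which marks cyclins and securin for destruction. Most genes of this machinery are transcribed periodically: the DREAM complex keeps them silent in resting and G1 cells, and the MuvB complex with B-MYB and then FOXM1 activates them towards mitosis. Their RNA therefore follows the proliferation of a culture. In bulk RNA, fewer cells in G2 phase and mitosis and less of these RNAs per cell cannot be told apart.

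The promoters of the set were read in RefSeq's windows (GRCh38.p14) of 250 bases before to 50 bases after each annotated start, which were present for 37 of the 44 genes. In a window, the cell cycle genes homology region (CHR, TTTGAA or TTCGAA, searched on both strands, so also as TTCAAA) is known as a contact of the MuvB complex. The CCAAT box, searched on both strands, so also as ATTGG, is known as the contact of NF-Y; no CHR spelling contains the box. A CHR was present in 29 of the 37 genes (78.4%), against 15.9% of 12495 tested genes with a window. A CCAAT box was present in 30 of the 37 (81.1%), against 41.6%. Both were present in 23 of the 37 (62.2%), against 6.46%. A gene counted if any of its windows held the letters. Among windows rather than genes, 69.6% of the set's 46 windows held a CHR and 73.9% a CCAAT box, against 16.4% and 34.6% of all 35116 windows. The windows below run from 150 bases before to 30 bases after the start and belong to the genes with the largest MUG-Chor1 differences and to CCNB1 and CDC20, which represent cyclin and anaphase control; capitals mark CHR and CCAAT matches on either strand.
KIF20A (chr5:138178962-138179141, plus strand): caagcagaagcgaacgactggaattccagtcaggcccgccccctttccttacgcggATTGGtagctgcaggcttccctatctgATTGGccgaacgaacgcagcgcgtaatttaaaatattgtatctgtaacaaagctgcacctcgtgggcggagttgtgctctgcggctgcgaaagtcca
ASPM (chr1:197146640-197146819, minus strand): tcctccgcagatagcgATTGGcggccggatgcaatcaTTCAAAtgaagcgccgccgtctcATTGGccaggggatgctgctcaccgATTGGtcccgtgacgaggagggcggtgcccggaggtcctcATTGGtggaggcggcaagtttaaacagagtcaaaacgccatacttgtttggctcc
DLGAP5 (chr14:55191556-55191735, minus strand): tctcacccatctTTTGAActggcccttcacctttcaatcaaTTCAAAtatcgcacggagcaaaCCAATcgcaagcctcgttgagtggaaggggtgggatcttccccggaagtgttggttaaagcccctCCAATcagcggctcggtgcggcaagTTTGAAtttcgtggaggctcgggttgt
PLK1 (chr16:23678739-23678918, plus strand): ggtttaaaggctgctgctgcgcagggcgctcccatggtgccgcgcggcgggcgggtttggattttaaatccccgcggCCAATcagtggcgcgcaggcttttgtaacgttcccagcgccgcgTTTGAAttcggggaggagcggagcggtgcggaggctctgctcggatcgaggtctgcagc
CCNB1 (chr5:69167000-69167179, plus strand): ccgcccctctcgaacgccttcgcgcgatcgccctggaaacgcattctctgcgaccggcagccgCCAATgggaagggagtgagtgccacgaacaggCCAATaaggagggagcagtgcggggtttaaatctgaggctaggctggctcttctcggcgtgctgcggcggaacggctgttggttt
CDC20 (chr1:43358831-43359010, plus strand): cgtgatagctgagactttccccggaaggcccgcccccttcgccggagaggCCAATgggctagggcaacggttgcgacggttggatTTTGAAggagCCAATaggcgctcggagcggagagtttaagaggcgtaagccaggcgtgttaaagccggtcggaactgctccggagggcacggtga
The KIF20A and CCNB1 windows held CCAAT boxes and no CHR, and those of ASPM, DLGAP5, PLK1 and CDC20 held matches to both. The median TNF difference in MUG-Chor1 was -1.10 (log2) in the 27 measured genes with a CHR and -1.20 in the 8 without one. These ranges overlapped, from -2.47 to 0.01 with a CHR and from -2.87 to 0.14 without. The matches describe the letters of these windows and were not tested for binding.

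Array brightness was alike, with medians of 2.52 to 2.63 on the deposited log2 scale, and the median of all deposited values was 2.57. Over all genes tested, the mean r with same-line controls was 0.932 for the MUG-Chor1 TNF array and 0.943 for the U-CH1 TNF array, and 0.960 to 0.970 among controls. TBXT, the gene of brachyury that defines chordoma, read 9.40 to 9.46 in MUG-Chor1 controls and 9.14 to 9.75 in U-CH1 controls, so the lines carried their labelled marker. One control array, MUG-Chor1 control 3, stood apart in the mitosis genes. It was the highest of its 3 controls in 42 of 42 genes, against 38.4% of all genes tested. For PTTG1 and RACGAP1 this followed in part from the filter on low values. RACGAP1 passed it only through this array (3.18), and PTTG1 only through this array (3.39) and U-CH1 control 3 (3.23). The place of MUG-Chor1 control 3 is given below for the mitosis genes' TNF differences, their array scores, the further G2 and mitosis genes and the untreated lines. The number of arrays limits the precision.

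In MUG-Chor1 the mitosis genes were lower on the TNF array than on the controls. The median difference over the 42 genes was -1.05 (log2, TNF minus the mean of 3 controls), beside 0.06 over all genes tested, and 40 of 42 differences were negative. The TNF array lay below all 3 controls in 33 of 42 genes, where 23.9% of all genes tested did so, inside their range in 9 and above it in 0. In limma, with Benjamini-Hochberg adjustment over all genes tested and a two-sided threshold of 0.05, KIF20A and ASPM fell and none rose. That is 2 of 42 genes, beside 1.41% of all genes called lower and 1.47% higher. At an unadjusted p under 0.05, 23 of 42 were lower and 0 higher, beside 5.17% of all genes lower and 7.45% higher. A difference beyond -1 was seen in 22 of 42, beside 3.3% of all genes. The fit took its spread from the 6 controls of both lines, and a lone TNF array is treated as varying to the same degree. The calls rested on few arrays: 0 members were called when either line's control 1 was left out, 1 (KIF20A) without U-CH1 control 2 or 3, and 3 without MUG-Chor1 control 3. Leaving out MUG-Chor1 control 2, the lowest control, gave 11. Of all genes, 0.865% were called lower without MUG-Chor1 control 1, 1.15% without control 2 and 1.87% without control 3. Without U-CH1 controls 1, 2 and 3 in turn, these shares were 1.11%, 1.23% and 1.37%.

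**Figure D1:**
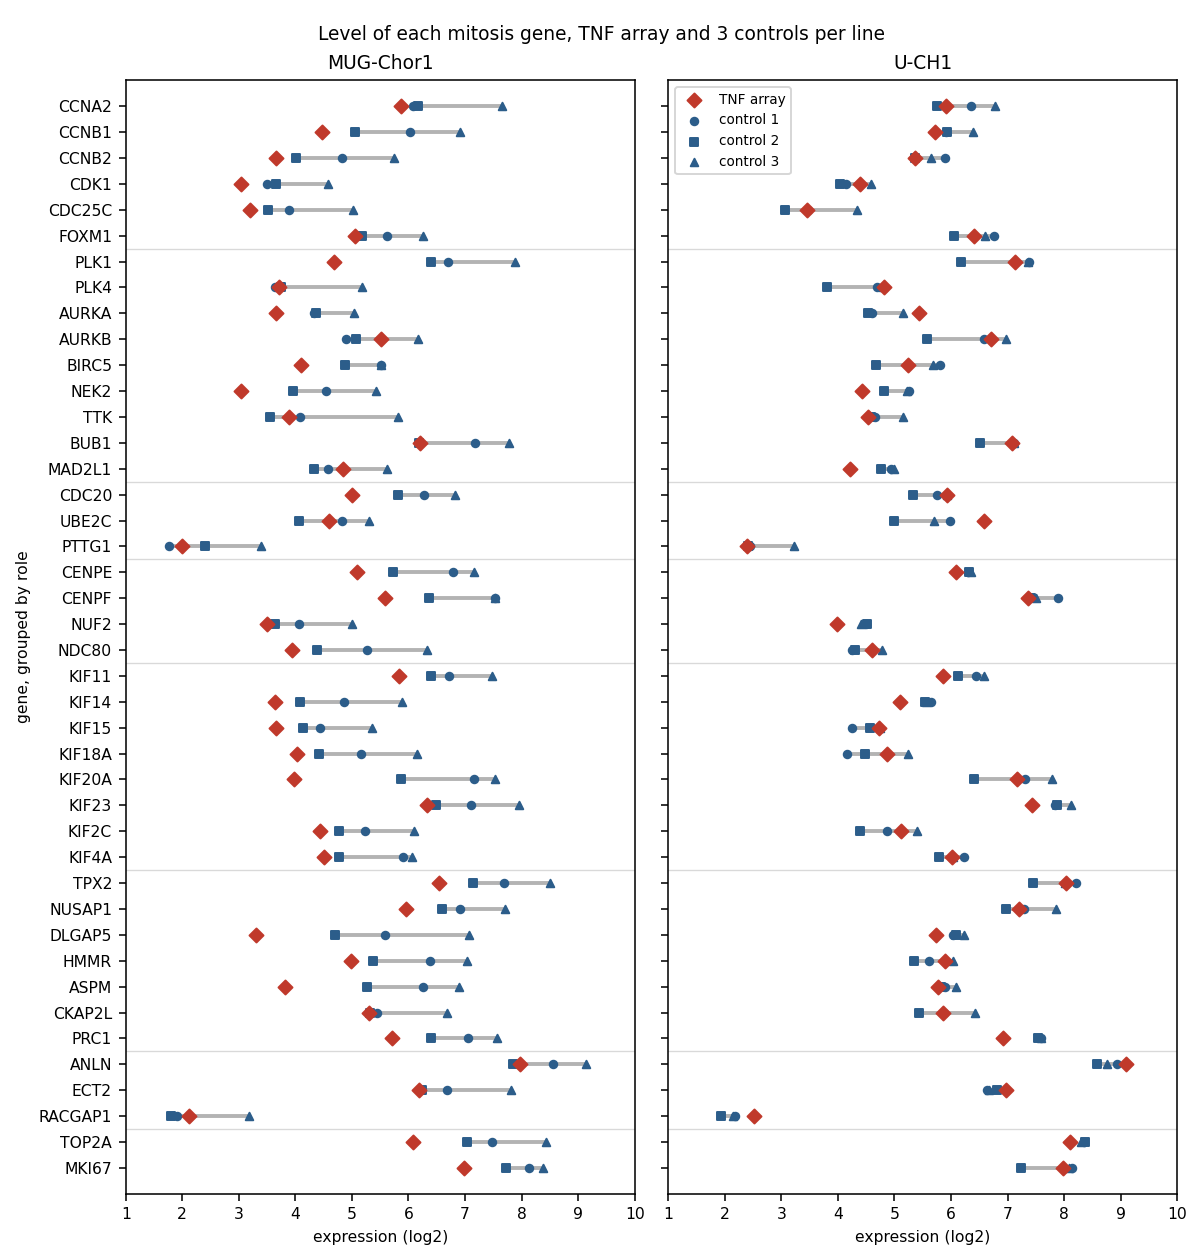
Level (log2) of each of the 42 measured mitosis genes on the TNF array (diamonds) and on 3 control arrays (circle, square and triangle, joined by a grey line from lowest to highest), MUG-Chor1 left and U-CH1 right. In MUG-Chor1, 33 diamonds lie left of all controls, and in U-CH1 16 do.

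Among the 8 kinesins, the motor proteins that slide or depolymerise spindle microtubules or bundle them for cytokinesis, all lay below all 3 controls on the MUG-Chor1 TNF array. KIF20A, a motor of the central spindle needed for cytokinesis, read 3.98 on the MUG-Chor1 TNF array, against 7.15, 5.87 and 7.53 on MUG-Chor1 controls 1 to 3. The TNF value was lower than every control by at least 1.89. KIF20A fell 7.32-fold (log2 -2.87 ± 0.62, SE; limma adjusted p = 0.0339). The call ended without MUG-Chor1 control 1 (adjusted p = 0.102), without U-CH1 control 1 (adjusted p = 0.0770), with the 4 MUG-Chor1 arrays alone (adjusted p = 0.0805) and with no filter on low values (adjusted p = 0.0576). KIF23, which pairs with RACGAP1 in the centralspindlin complex, read 6.33 on the TNF array, against 7.10, 6.49 and 7.95. Its TNF value lay 0.17 under the lowest control. The remaining 6 kinesins had differences of -0.93 (KIF2C) to -1.31 (KIF14), with KIF11, the motor that pushes spindle poles apart, at -1.03, KIF15, which helps it, at -0.98, KIF18A, which dampens chromosome movements, at -1.22, and KIF4A, a motor of chromosome arms and the central spindle, at -1.06.

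The spindle-associated proteins had a median difference of -1.28 over 7 genes, and all 7 lay below the 3 controls on the MUG-Chor1 TNF array. ASPM, which focuses spindle poles, read 3.82 on the MUG-Chor1 TNF array, against 6.26, 5.27 and 6.89 on the controls. It fell 5.0-fold (log2 -2.32 ± 0.49, SE; limma adjusted p = 0.0300), with the TNF value 1.45 under the lowest control. The call ended without any 1 of the U-CH1 controls (adjusted p = 0.0520 to 0.0694), without MUG-Chor1 control 1 (adjusted p = 0.0915) and with the 4 MUG-Chor1 arrays alone (adjusted p = 0.127). DLGAP5, which stabilises kinetochore fibres, read 3.31 on the TNF array, against 5.59, 4.70 and 7.06. Its difference of -2.47 ± 0.65 (SE) did not pass in limma (adjusted p = 0.0840), and its controls had an SD of 1.19 (n = 3). It passed when MUG-Chor1 control 3 was left out (log2 -1.84, adjusted p = 0.0185) or control 2 was (log2 -3.01, adjusted p = 0.00932). HMMR read 4.98 on the TNF array, against 6.37, 5.38 and 7.03. TPX2, which activates Aurora A at the spindle, differed by -1.23, PRC1, the bundler of the central spindle, by -1.30, NUSAP1, which bundles microtubules near chromosomes, by -1.13, and CKAP2L by -0.52.

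Mitotic kinases and the spindle checkpoint were divided. PLK1, the kinase that matures centrosomes and helps activate cyclin B-CDK1, read 4.68 on the MUG-Chor1 TNF array, against 6.70, 6.40 and 7.89 on the controls. The TNF value was 1.72 under the lowest control, and the difference was -2.31 ± 0.58 (SE; limma adjusted p = 0.0684). NEK2, which separates centrosomes, differed by -1.60 and BIRC5, the survivin subunit of the chromosomal passenger complex, by -1.20. AURKB, the kinase of that complex, read 5.52 on the TNF array, against 4.89, 5.07 and 6.16, so it lay inside the controls. MAD2L1, a checkpoint inhibitor of CDC20, read 4.85, against 4.57, 4.32 and 5.61, also inside. Of the 9 measured genes in this role, 4 lay below all controls and 5 inside, the others inside being PLK4 at -0.48, TTK at -0.60 and BUB1 at -0.86. AURKA, the kinase of the spindle poles, lay below its controls at -0.91.

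The cyclin-CDK1 core was low on the TNF array in all 6 genes, each below its 3 controls. CCNB1, the main mitotic cyclin, read 4.47 on the MUG-Chor1 TNF array, against 6.03, 5.05 and 6.91. Its difference of -1.53 ± 0.55 (SE) did not pass in limma (adjusted p = 0.236). FOXM1, the transcription factor that activates many of these genes, read 5.06 on the TNF array, against 5.63, 5.18 and 6.25, only 0.12 under the lowest control. CDK1 differed by -0.88, CCNA2 by -0.77, CCNB2 by -1.20 and CDC25C, a phosphatase that activates CDK1, by -0.95. Among the regulators of the anaphase-promoting complex, CDC20, its mitotic activator, read 5.01, against 6.28, 5.81 and 6.82 (limma adjusted p = 0.135). UBE2C, its ubiquitin-conjugating enzyme, read 4.60, against 4.83, 4.07 and 5.31, inside the controls. PTTG1, securin, read 2.00, near or under the median of all deposited values, against 1.77, 2.41 and 3.39; near-identical gene copies leave its identity uncertain.

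The kinetochore genes, which attach chromosomes to microtubules, had a median of -1.43 over 4 genes, all of them below the controls. CENPF read 5.59 on the MUG-Chor1 TNF array, against 7.52, 6.37 and 7.54 on the controls (log2 -1.56 ± 0.44, SE; limma adjusted p = 0.107). NDC80, which makes the direct contact with microtubules, read 3.94, against 5.27, 4.39 and 6.33. CENPE, a kinetochore motor, differed by -1.46 and NUF2, the partner of NDC80, by -0.74. TOP2A, the enzyme that untangles sister chromosomes, read 6.08, against 7.47, 7.04 and 8.43 (log2 -1.56, adjusted p = 0.105). MKI67, the gene of the proliferation marker Ki-67, read 6.98, against 8.14, 7.72 and 8.38. The 3 cytokinesis genes had a median difference of -0.53. ECT2, which acts at the division plane, read 6.18, against 6.68, 6.24 and 7.82. ANLN, a scaffold of the contractile ring, read 7.98, against 8.55, 7.85 and 9.13, inside its controls. RACGAP1, a partner of KIF23 at the central spindle, read 2.13, against 1.90, 1.80 and 3.18, a level near the median of all deposited values, and near-identical gene copies leave its identity uncertain.

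The MUG-Chor1 controls also differed among themselves in these genes. Control 3 was higher than control 2 in 42 of 42 genes, by a median of 1.37 (0.64 to 2.36), and higher than control 1 by a median of 0.89. The 42 include PTTG1 and RACGAP1, which passed the filter on low values only through control 3 arrays. In 28 of 42 genes the gap between controls 3 and 2 was larger than the difference between the TNF array and the control mean. Set against each control alone, the median TNF difference was -0.97 with control 1 (37 of 42 lower), -0.43 with control 2 (35 of 42 lower) and -1.73 with control 3 (42 of 42 lower). So the direction held against each control in most genes, and the size depended on which control was used. Over the 42 genes the control SD had a median of 0.74 for MUG-Chor1 and 0.30 for U-CH1 (n = 3 each), beside 0.21 and 0.25 over all genes tested. A control range above 1 was seen in 39 of 42 genes in MUG-Chor1 and in 7 of 42 in U-CH1, beside 8% and 8.61% of all genes tested.

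**Figure D2:**
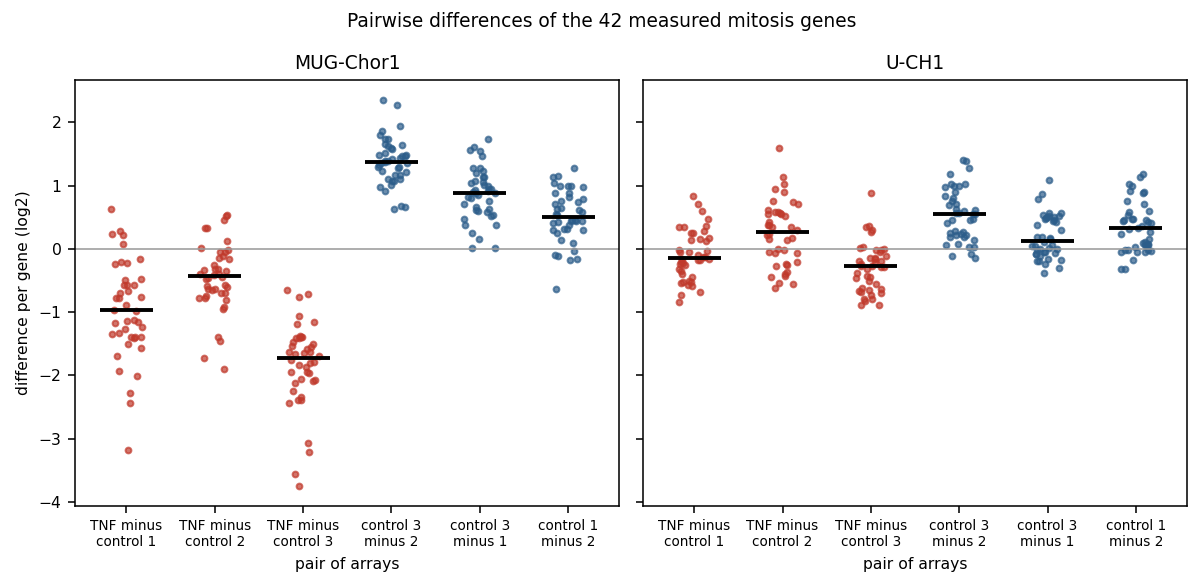
Difference per gene (log2) between pairs of arrays for the 42 measured mitosis genes, with the TNF array minus each control (red) and controls against each other (blue), MUG-Chor1 left and U-CH1 right; black bars are medians. In MUG-Chor1 the medians of TNF minus controls 1, 2 and 3 are -0.97, -0.43 and -1.73, and control 3 minus control 2 has a median of 1.37.

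A score was taken as the mean over the 42 genes of each array's difference from its own line's control mean. It was -1.08 on the MUG-Chor1 TNF array, against -0.12, -0.63 and 0.75 on MUG-Chor1 controls 1 to 3 (SD 0.70). The TNF array was the lowest of the line, and the distance to control 2 was smaller than that between controls 2 and 3. It was -0.05 on the U-CH1 TNF array, against 0.05, -0.29 and 0.24 on U-CH1 controls 1 to 3 (SD 0.27). The U-CH1 TNF array thus lay inside its controls.

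**Figure D3:**
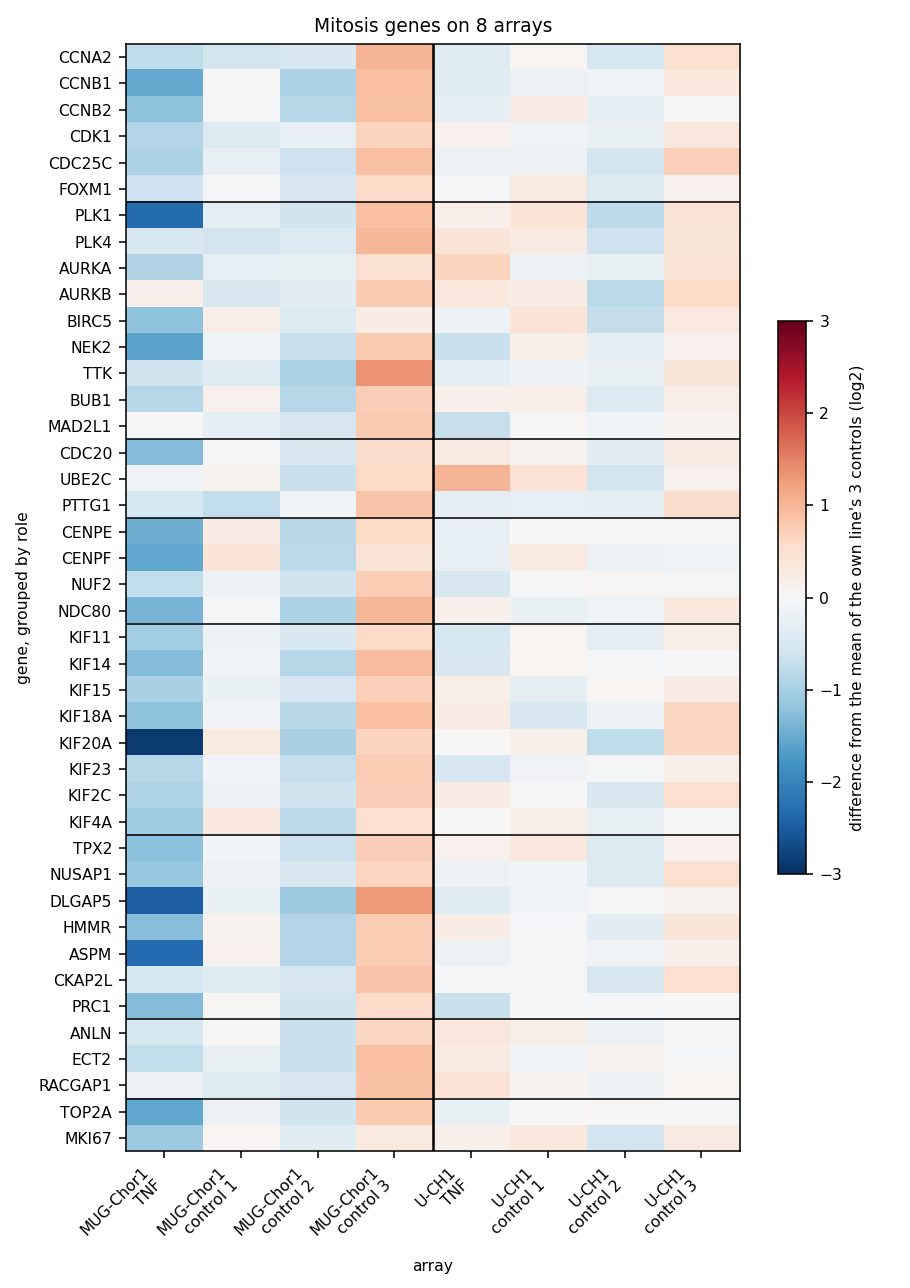
Difference (log2) of each of 42 mitosis genes (rows, grouped by role with black lines between roles) from the mean of the own line's 3 controls, on 8 arrays (columns, the TNF array left of its controls); blue is lower and red higher. The MUG-Chor1 TNF column is blue in 40 of 42 rows, and MUG-Chor1 control 3 was the highest of its controls in 42, in BIRC5 and CENPF by a difference too small to see in the colours.

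In U-CH1 no mitosis gene passed. The median TNF difference was -0.06, beside 0.04 over all genes tested, with 24 of 42 negative and 18 positive. In limma 0 of 42 were called, and 0 of 42 lay under an unadjusted p of 0.05, beside 0.359% of all genes called lower and 0.913% higher, and 3.8% and 6.99% at the unadjusted threshold. The TNF array lay below all 3 controls in 16 of 42 genes, where 23.4% of all genes did, inside in 19, and above in 7, where 30.8% did. UBE2C had the largest difference, with 6.58 on the U-CH1 TNF array, against 5.99, 4.99 and 5.69 on U-CH1 controls 1 to 3 (log2 1.03, limma adjusted p = 0.481). The lowest differences were those of MAD2L1 at -0.69, NEK2 at -0.68 and PRC1 at -0.66. MAD2L1 read 4.21, against 4.93, 4.77 and 4.99. NEK2 and PRC1 lay below all 3 controls in U-CH1 and also in MUG-Chor1. KIF20A read 7.16 on the U-CH1 TNF array, against 7.32, 6.41 and 7.79, and ASPM 5.76, against 5.89, 5.82 and 6.08. PLK1 read 7.12, against 7.37, 6.18 and 7.37, inside its controls. In 3 of 42 genes, AURKA, CDC20 and ECT2, the TNF array lay above the U-CH1 controls and below the MUG-Chor1 controls, as in 4.43% of all genes.

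The lines' TNF differences were set against each other by an interaction contrast. It was lower in MUG-Chor1 for 41 of 42 genes, with a median of -1.01, beside 0.02 over all genes tested. With single controls left out in turn, the median over the 42 genes ran from -1.35 to -0.66. In limma 0 of 42 passed (7 lower and 0 higher at an unadjusted p under 0.05), beside 0.33% of all genes called lower and 0.2% higher, and 3.95% and 3.41% at the unadjusted threshold. KIF20A had the largest contrast at -2.86 (adjusted p = 0.306), followed by PLK1 at -2.46 (adjusted p = 0.385) and ASPM at -2.15 (adjusted p = 0.351). The lines' responses in these genes are therefore not shown to differ gene by gene. An additive model fitted to the same 8 arrays, with line and treatment as terms, gave a median of -0.54 and 0 of 42 calls in limma (11 lower and 0 higher at an unadjusted p under 0.05), beside 0.93% of all genes called lower and 1.55% higher, and 5.45% and 9.87% at the unadjusted threshold. Its smallest adjusted p was 0.102, for PRC1 at -0.98. Without the U-CH1 TNF array it became the MUG-Chor1 contrast and called 2.

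The untreated lines were compared next. The median difference, MUG-Chor1 minus U-CH1, was -0.15, beside -0.04 over all genes tested. In limma 0 of 42 members were called (5 lower and 1 higher at an unadjusted p under 0.05), beside 8.57% of all genes called lower and 10.3% higher, and 15.1% and 16.6% at the unadjusted threshold. The 3 controls of one line overlapped those of the other in 42 of 42 genes, while among all genes tested 18.1% lay wholly higher in MUG-Chor1 and 18.2% wholly lower. AURKB had the largest difference, with 4.89, 5.07 and 6.16 in MUG-Chor1 controls, against 6.59, 5.57 and 6.97 in U-CH1 controls (log2 -1.0, adjusted p = 0.111). FOXM1 read 5.63, 5.18 and 6.25 in MUG-Chor1 controls, against 6.76, 6.05 and 6.60 in U-CH1 controls (log2 -0.79, adjusted p = 0.0880). NDC80 went the other way, with 5.27, 4.39 and 6.33 in MUG-Chor1 controls, against 4.26, 4.31 and 4.77 in U-CH1 controls. UBE2C differed by -0.82, KIF23 by -0.76, TOP2A by -0.69, HMMR by 0.60 and ANLN by -0.24. The count depended on single controls. Without MUG-Chor1 control 3, 11 of the 42 genes were called lower in MUG-Chor1, and without U-CH1 control 2, 1 was. Without MUG-Chor1 control 2, 2 were called higher. The shares of all genes called in these settings are not given here.

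Other cell cycle genes were read from lists outside the 42. These lists too were chosen with earlier results of these data known. Of 48 further genes transcribed in G2 phase and mitosis, 0 passed in limma in MUG-Chor1 (10 lower and 0 higher at an unadjusted p under 0.05), their median was -0.60, and 33 lay below all 3 controls. In this list too MUG-Chor1 control 3 was the highest control in 46 of 48 genes, and the median difference was -0.33 with control 1, -0.26 with control 2 and -1.16 with control 3. KNL1, a kinetochore scaffold, was closest, with 4.11 on the TNF array, against 6.03, 5.14 and 6.54 (log2 -1.79, adjusted p = 0.0590). Of 29 genes of G1/S transition and DNA replication, 0 passed (0 lower and 1 higher at an unadjusted p under 0.05), the median was 0.01, and 1 lay below all controls. CCNE1, the cyclin of S-phase entry, read 5.39 on the TNF array, against 3.98, 4.27 and 4.17 (log2 1.25, adjusted p = 0.0750). The G1/S score was 0.05 on the MUG-Chor1 TNF array, inside the -0.34 to 0.27 of its controls. Core subunits of the anaphase-promoting complex, which are not transcribed periodically, were read in one list with FZR1, an activator of the complex. This list had a median of 0.09 over 13 genes, ANAPC1 being closest at 0.58 (limma adjusted p = 0.680). Of the 13 genes 0 passed, and 0 lay under an unadjusted p of 0.05. Of 9 cohesin genes 0 passed (1 lower at an unadjusted p under 0.05), PDS5B standing at -1.07 (adjusted p = 0.0807).

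**Figure D4:**
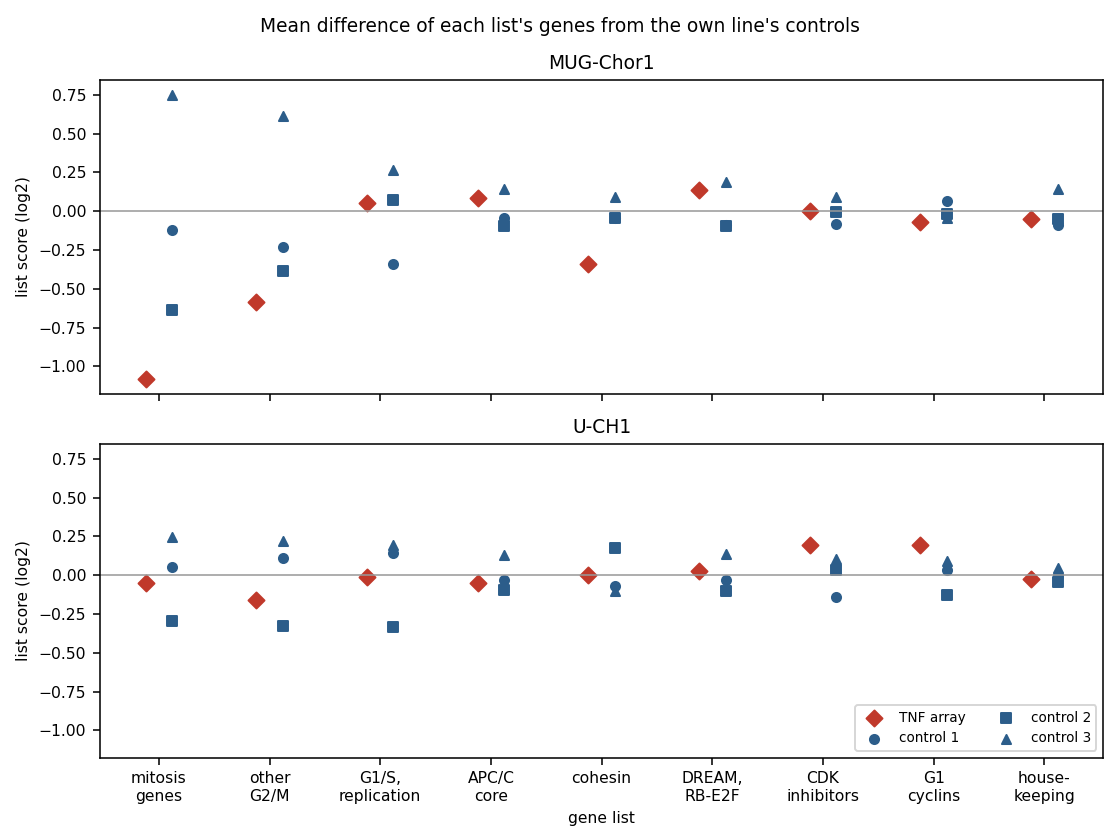
Score (mean difference from the own line's control mean, log2) of the measured genes of 9 lists on the TNF array (diamonds) and 3 controls (circle, square, triangle), MUG-Chor1 above and U-CH1 below. The mitosis genes stand at -1.08 on the MUG-Chor1 TNF array, against -0.63 to 0.75 on its controls, and the G1/S list at 0.05, against -0.34 to 0.27.

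Regulators of the mitosis genes were read in the same arrays. In limma 0 of 22 DREAM, MuvB and RB-E2F genes were called (0 lower and 3 higher at an unadjusted p under 0.05). LIN37, a MuvB subunit, was closest at 1.20 (adjusted p = 0.0831). MYBL2, which encodes B-MYB, read 6.01 on the TNF array, against 6.07, 6.29 and 6.95, and E2F1 read 4.86, against 4.66, 5.06 and 4.45. Of 8 tested CDK inhibitor and p53-axis genes, 1 rose, GADD45A, a stress gene that restrains CDK1. It read 9.50 on the MUG-Chor1 TNF array, against 7.73, 7.65 and 7.85 (log2 1.76, limma adjusted p = 0.00451). The additive model across both lines also called GADD45A higher (log2 1.36, limma adjusted p = 0.00943). The interaction contrasts of this list, MUG-Chor1 minus U-CH1, ran from -1.43 to 0.79, with 6 negative and 2 positive. CDKN1A, the inhibitor p21, read 5.09 on the MUG-Chor1 TNF array, against 5.14, 5.64 and 4.85, and 7.16 on the U-CH1 TNF array, against 5.70, 5.70 and 6.54 (log2 1.18 in U-CH1, adjusted p = 0.272). Of 8 G1 cyclin and CDK genes 0 passed (2 lower and 1 higher at an unadjusted p under 0.05). CCND3 was closest at 0.73 (adjusted p = 0.304), and CCND1 read 5.96 on the TNF array, against 6.81, 6.86 and 6.73. Of 7 housekeeping genes 0 passed and 0 lay under an unadjusted p of 0.05, GUSB being closest at -0.40, and their score was -0.05 on the TNF array, against -0.09 to 0.14 on the controls.

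Between the untreated lines these lists held called genes. Of 48 further G2 and mitosis genes, 4 were lower and 1 higher in MUG-Chor1, where 8.57% of all genes were called lower and 10.3% higher, so this list's share of lower calls was near that of all genes. The 3 largest called differences were CDCA3 at -1.13, NCAPD2, a condensin subunit, at -1.13 and CENPK at 0.98. Of 29 G1/S and replication genes, 1 was called lower and 0 higher. This was CCNE1 at -1.54, with 3.98 to 4.27 in MUG-Chor1 controls, against 5.43 to 6.12 in U-CH1 controls. Of 22 DREAM, MuvB and RB-E2F genes, 3 were called lower and 2 higher. RB1, the retinoblastoma repressor of E2F, was higher in MUG-Chor1 by 1.66, while MYBL1 stood at -1.30 and E2F3 at -1.15, both called. Of 9 cohesin genes 2 were called higher, SMC3 at 0.86 and MAU2 at 0.73. Of 8 CDK inhibitor and p53-axis genes 1 was called lower, MDM2 at -0.81, and of 7 housekeeping genes 1, GAPDH at -0.78. Of 8 G1 cyclin and CDK genes 2 were called higher, MYC at 2.73 and CCND1 at 0.90. No list was tested against the shares of all genes given above. Without U-CH1 control 1, CDCA3, NCAPD2, CENPK and MAU2 were not called (adjusted p = 0.0563 to 0.124). NCAPD2, CENPK, MAU2, MYBL1, MDM2 and CCND1 were each also not called without at least 1 of the other 5 controls (adjusted p = 0.0537 to 0.131).

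Markers of cell identity moved on the same MUG-Chor1 TNF array. In this contrast 1.41% of all genes tested were called lower and 1.47% higher. Of 10 chordoma and notochord markers, 8 fell, among them ACAN at -4.09, KRT19 at -3.08 and CD24 at -2.99. The score of the 10 markers was -2.35 on the TNF array, against -0.14 to 0.22 on the controls. TBXT read 7.51, against 9.46, 9.44 and 9.40. In U-CH1 all 10 of these markers were also lower on the TNF array than the control mean, with a median of -0.68 and 0 called. There 9 of 10 lay below all 3 U-CH1 controls, where 23.4% of all genes did. Their U-CH1 score was -0.66 on the TNF array, against -0.26 to 0.19 on the controls. Of 7 fibroblast markers tested, 3 rose, FAP at 3.74, LUM at 3.65 and DCN at 1.60, while the other 4 were negative (lowest -0.81) and the list median was -0.07. The list score, a mean, was 1.00 on the TNF array, against -0.45 to 0.27 on the controls; FAP stood at 5.71, against 1.63 to 2.29. DCN was not called without U-CH1 control 1, MUG-Chor1 control 1 or MUG-Chor1 control 2 (adjusted p = 0.0627 to 0.106). Of 5 leukocyte markers tested 0 passed (2 higher at an unadjusted p under 0.05), CD68 being closest at 1.00, with a score over these 5 genes of 0.24, against -0.12 to 0.12, and PTPRC, which defines leukocytes, read 1.14 on the TNF array, against 1.03 to 1.19 on the controls. Of 5 endothelial markers KDR fell by 2.37, and the score over the 5 genes was -0.66, against -0.10 to 0.16. The part of these shifts in the mitosis result was not tested.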

How the data were processed

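RNA from 8 samples was hybridised to 1-colour human arrays. The deposited table holds 53617 probe sets. The authors summarised probe intensities with RMA in Transcriptome Analysis Console, per the submitters' processing notes, and the deposited values (0.06 to 12.67) were read here as log2 values, their base being unstated in the labels. RMA gives the arrays near-equal distributions, so differences are relative to the bulk of probe sets. Platform annotation gave 1 symbol to 23871 probe sets, several to 1842 and none here to 27904, and 90 symbols were updated. The brightest probe set stood for each of 22395 genes, 632 of which had several, and 16986 genes above the median of all values (2.57) on at least 1 array were tested. A model of 4 group means was fitted in limma 3.58.1 (R 4.3.3), with Benjamini-Hochberg adjustment over all genes tested and two-sided p-values; an additive model gave the effect across both lines. The procedure was tested on simulated data. Members and gene lists were chosen with earlier results of these data known. Values on every MUG-Chor1 array are given for members that passed. In each role they are also given for the members with the largest TNF difference in MUG-Chor1 and the largest line difference. Values on U-CH1 arrays are given for only some of these members. Further members were named after their values were seen. Of each pathway list, up to 3 called genes by size, or the gene with the smallest p, are named. Of 190 list genes, 12 had no probe set with 1 symbol and are not analysed here. Alternatives changed the filter, probe set choice, normalization, variance model, array weights, threshold and arrays used. Same-numbered controls of the lines correlated in their deviations at 0.04, -0.06 and 0.16, so numbers were not taken as pairs. Scripts used Python 3.11.15, pandas 2.3.3 and matplotlib 3.10.9.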

Additional observations from a re-analysis of the deposited data

Results flagged for a closer look

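For 3 of 42 mitosis genes the TNF array lay below all 3 controls in MUG-Chor1 and above all 3 in U-CH1, where 4.43% of all genes tested did so. In each, the test of the difference between the lines did not pass in limma. AURKA read 3.66 on the MUG-Chor1 TNF array, against 4.33, 4.36 and 5.03 on its controls, and 5.43 on the U-CH1 TNF array, against 4.59, 4.53 and 5.16, a difference between the lines' effects of -1.58 (adjusted p = 0.363). For CDC20 the difference was -1.56 (adjusted p = 0.428), and for ECT2 it was -1.0 (adjusted p = 0.912). CDC20 read 5.93 on the U-CH1 TNF array, level to 2 decimals with its highest control.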

How the results depend on the processing

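The count of 2 mitosis genes called lower in MUG-Chor1 became 1 with no filter, 4 at an adjusted p under 0.1 and 0 with the 4 MUG-Chor1 arrays alone. The shares of all genes called lower in these settings were 1.03%, 2.03% and 0.901%. The count ran between 0 and 11 when arrays were left out in turn, beside 0.865% to 1.87% of all genes. Across both lines the count of 0 ran between 0 and 2. Between control lines the count of 0 lower became 5 with array weights and 1 at an adjusted p under 0.1, and ran between 0 and 11 with arrays left out, as 0 higher did between 0 and 2. With the replicate number as a block, 3 genes (FOXM1, AURKB and UBE2C) were called lower, although the numbers share no stated pairing. For the changed settings across both lines and between control lines, the shares of all genes called are not given here. Without these changes, 8.57% of all genes were called lower and 10.3% higher between control lines, and 0.93% lower across both lines. Whether the counts exceed the shares of all genes was not tested. The TNF difference in MUG-Chor1 changed sign for MAD2L1 with quantile normalization (-0.055) and, with array weights, for UBE2C (0.037) and RACGAP1 (0.078). With arrays left out it changed sign for PLK4 (-0.76 to 0.015), AURKB (-0.10 to 0.54), TTK (-1.07 to 0.066), MAD2L1 (-0.25 to 0.40), UBE2C (-0.47 to 0.15), RACGAP1 (-0.41 to 0.28) and CDKN1A (-0.31 to 0.092), and TBXT between control lines ran from -0.22 to 0.083. The causes were not tested. Of the calls in U-CH1 and of the difference between lines, 0 appeared for these genes under any alternative run. One TNF array per line limits every TNF result.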
